A study of Mus musculus with 2 samples.

Results

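Imprinted genes, of which only the copy inherited from 1 parent is active in the tissues where they are imprinted, were examined in open chromatin of the newborn mouse spleen together with the control regions of their clusters. The genes were a named list of 40, matched by symbol to the GENCODE vM21 annotation of the mouse assembly mm10 (GRCm38). They are 40 of 55450 annotated genes, and 37 of them are among the 21951 protein-coding genes. The others are the lincRNAs H19 and Meg3 and the antisense RNA Airn.

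Chromatin was assayed by DNase-seq, in which the enzyme DNase I cuts DNA where it is not wrapped in nucleosomes, so that peaks of cuts mark open regions. The tissue was whole spleen of male B6CASTF1/J mice aged 4 days, which are hybrids between the strains C57BL/6J and CAST/EiJ. The labels give 1 group of 2 biological replicates, numbered as different males but carrying the same donor entry. They name no treatment and no mutant allele and say nothing of pooling. With 1 group there was no contrast between conditions, and the values below are descriptions without a test. No allele-specific values were used, so which parental copy carried an open region was not measured. In bulk tissue, fewer cells of a type and less open chromatin per cell cannot be told apart.

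Imprinted genes lie in clusters, each governed by a control region whose DNA is methylated on the copy from 1 parent only. Most control regions are methylated in the egg and cover the start of a paternally expressed gene or of a long non-coding RNA that silences its neighbours. A few, including those of H19 and of the Dlk1-Meg3 cluster, are methylated in sperm and lie between genes. The insulator protein CTCF binds the unmethylated H19 control region, the zinc finger protein ZFP57 binds the methylated copy of control regions and keeps it methylated, and YY1 is known to bind the Peg3 control region. Many imprinted genes act in the growth of the fetus and placenta and are turned down in most organs after birth.

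The open regions on which the results below turn are shown first, read from the RefSeq GRCm38.p6 genome, on the strand on which the gene is transcribed. Capitals mark matches on either strand to the core of the CTCF motif in the form repeated at H19, to the ZFP57 motif (TGCCGC) and to a YY1 motif (GCCATNTT). The first 3 lie upstream of H19 and are shown because each holds 1 CTCF-form match. In the proximal and the distal one these letters overlap TGCCGC matches.
H19 control region, proximal, chr7:142580242-142580393, - strand: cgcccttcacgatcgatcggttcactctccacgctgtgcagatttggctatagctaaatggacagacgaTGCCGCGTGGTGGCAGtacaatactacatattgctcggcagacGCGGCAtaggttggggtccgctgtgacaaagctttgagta
H19 control region, middle, chr7:142580681-142580852, - strand: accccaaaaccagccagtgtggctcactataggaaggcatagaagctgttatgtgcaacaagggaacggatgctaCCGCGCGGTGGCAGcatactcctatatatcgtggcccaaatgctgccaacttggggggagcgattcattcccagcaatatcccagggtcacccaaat
H19 control region, distal, chr7:142581739-142581880, - strand: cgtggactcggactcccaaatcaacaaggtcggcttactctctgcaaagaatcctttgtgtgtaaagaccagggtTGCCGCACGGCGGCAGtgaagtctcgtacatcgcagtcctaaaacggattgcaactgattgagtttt
The next 2 lie in a Peg3 intron and are shown for their YY1 matches, the downstream one as the 300 bases with the most matches.
Peg3 intron, upstream region, chr7:6729481-6729700, - strand: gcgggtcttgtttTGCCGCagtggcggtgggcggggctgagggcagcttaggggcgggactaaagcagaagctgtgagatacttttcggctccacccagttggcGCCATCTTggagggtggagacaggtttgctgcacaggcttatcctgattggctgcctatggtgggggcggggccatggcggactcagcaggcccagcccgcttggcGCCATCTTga
Peg3 intron, downstream region, chr7:6728281-6728580, - strand: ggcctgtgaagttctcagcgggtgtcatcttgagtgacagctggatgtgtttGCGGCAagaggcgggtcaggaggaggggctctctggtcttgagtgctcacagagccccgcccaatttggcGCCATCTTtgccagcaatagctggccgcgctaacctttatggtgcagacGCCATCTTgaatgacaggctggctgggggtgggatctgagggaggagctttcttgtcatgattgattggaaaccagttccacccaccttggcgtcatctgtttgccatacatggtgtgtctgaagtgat
The next 4 lie at starts of non-coding RNAs that lie within or opposite imprinted genes, and of these Airn (300 bases of a longer region) and Peg13 hold pairs of TGCCGC.
Airn start, chr17:12741486-12741785, + strand: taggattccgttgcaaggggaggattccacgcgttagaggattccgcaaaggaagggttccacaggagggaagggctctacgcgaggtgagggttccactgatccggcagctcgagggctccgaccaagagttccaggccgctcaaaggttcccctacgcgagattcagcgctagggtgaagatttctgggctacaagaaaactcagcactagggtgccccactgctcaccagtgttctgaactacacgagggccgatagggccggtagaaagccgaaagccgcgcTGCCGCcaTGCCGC
Kcnq1ot1 start, chr7:143296481-143296760, - strand: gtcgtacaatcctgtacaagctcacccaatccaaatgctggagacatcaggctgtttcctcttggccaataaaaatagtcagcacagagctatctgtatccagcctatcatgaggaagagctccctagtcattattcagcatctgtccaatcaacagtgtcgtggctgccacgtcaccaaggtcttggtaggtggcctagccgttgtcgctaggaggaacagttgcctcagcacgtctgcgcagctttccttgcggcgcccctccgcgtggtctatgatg
Peg13 start, chr15:72809981-72810140, - strand: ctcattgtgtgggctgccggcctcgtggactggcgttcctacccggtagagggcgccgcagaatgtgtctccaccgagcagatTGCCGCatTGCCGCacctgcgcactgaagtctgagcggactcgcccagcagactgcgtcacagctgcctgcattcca
Nespas start, chr2:174295361-174295580, - strand: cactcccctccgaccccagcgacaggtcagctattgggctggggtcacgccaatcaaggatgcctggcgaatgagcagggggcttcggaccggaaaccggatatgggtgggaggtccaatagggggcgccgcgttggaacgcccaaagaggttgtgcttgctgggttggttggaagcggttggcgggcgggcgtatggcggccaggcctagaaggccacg
The last 2 are the strongest regions around Peg10 and Dlk1, both away from the start of the gene, and hold no match to the searched patterns. CTCF cores with letters outside the searched forms were not counted.
Peg10 intron, chr6:4749241-4749460, + strand: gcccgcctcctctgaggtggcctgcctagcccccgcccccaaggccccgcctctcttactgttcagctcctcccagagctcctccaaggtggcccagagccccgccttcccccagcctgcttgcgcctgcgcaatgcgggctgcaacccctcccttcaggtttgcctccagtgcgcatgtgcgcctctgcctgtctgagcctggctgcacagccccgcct
Dlk1 upstream, chr12:109437821-109438000, + strand: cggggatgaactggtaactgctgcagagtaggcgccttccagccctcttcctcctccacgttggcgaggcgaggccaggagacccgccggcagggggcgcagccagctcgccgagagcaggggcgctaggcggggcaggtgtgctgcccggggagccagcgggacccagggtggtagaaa

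A promoter was called open where a region with overlapping peaks of both libraries touched the 1 kb on either side of any start site of the gene. By this rule 29 of the 40 imprinted genes (72.5%) had an open promoter, and so had 27 of the 37 protein-coding ones, beside 61.4% of all protein-coding genes and 31.8% of all genes. In the stricter of the 2 peak lists deposited per library the count was 23 (57.5%), beside 56.4% of protein-coding genes. A footprint, which is a run of bases shielded from the enzyme within an open region, was found in both libraries within 1 kb of a start at 26 genes (65%), beside 58.2%. CpG-rich promoters, taken as those with an observed over expected CpG ratio of at least 0.5, were open at 23 of 28 protein-coding imprinted genes (82.1%), beside 90.4% of all such genes. CpG-poor promoters were open at 4 of 9 (44.4%), beside 30.2%. The rule takes any start, and some genes have many, such as Ube3a and Gnas with 16 each. With the gene-level start only, 22 of the 40 imprinted genes were open. In that setting 23 of the 40 had peaks in both libraries, beside 12560 of the 21951 protein-coding genes. The part of the number of starts in the shares was not tested. The counts are small, and none of these differences was tested.

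The promoters that were open carried weak signals for the most part. Signal is the authors' value per peak, of unstated scale and called per library. A gene's promoter signal was taken from its strongest peak in the 1 kb window, in each library separately. The 2 values can therefore come from different regions, as at Ascl2, Mest and the main Gnas start. Over the 30 imprinted genes with peaks in both libraries the median was 1.65 (1.84 in replicate 1 and 1.502 in replicate 2), whereas over 13599 protein-coding genes with peaks in both it was 5.76, with quartiles of 1.82 and 11.2. Among CpG-rich protein-coding genes alone the median was 7.31. Of the 30 imprinted genes, 26 lay below 5.76, 15 below the lower quartile and 14 below 1. The genes were not 30 independent points, since Peg3 and Usp29, and likewise Peg10 and Sgce, share their strongest promoter region. The median depended on the setting, and was 0.870 within 500 bp of a start, 2.91 within 2500 bp and 3.02 in the stricter lists, where protein-coding genes had 5.83, 5.61 and 6.55. In these settings 24 of 28, 24 of 31 and 19 of 23 imprinted genes with values lay below the protein-coding median. Only 4 genes exceeded 10. They were Inpp5f, an inositol phosphatase gene, with 22.1 in replicate 1 and 20.8 in replicate 2, Commd1, a gene of copper handling, with 16.1 and 13.1, the ubiquitin ligase gene Ube3a with 15.3 and 11.4, and the trafficking gene Trappc9 with 14.6 and 11.7.

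**Figure D1:**
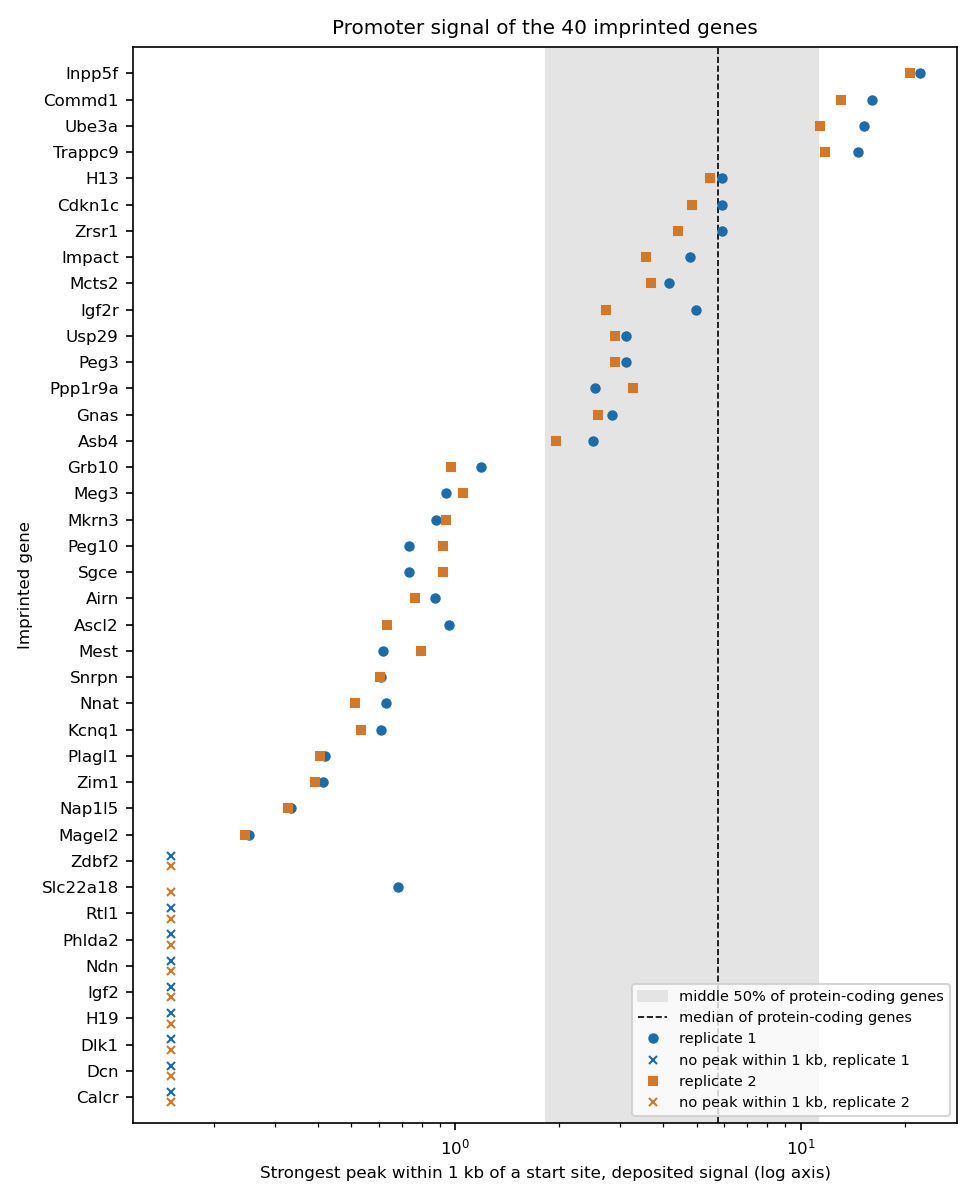
Promoter signal of each of the 40 imprinted genes (horizontal log axis, deposited signal of the strongest peak within 1 kb of a start) in replicate 1 (circles) and replicate 2 (squares), ordered by the mean of both. Crosses at the left mark libraries without a peak there, the grey band and dashed line give the quartiles (1.82 and 11.2) and median (5.76) of protein-coding genes, and 4 genes lie above 10 in both libraries.

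At 9 imprinted genes no peak of either library lay within 1 kb of a start: H19, Igf2, Ndn, Phlda2, Dlk1, Rtl1, Calcr, Zdbf2 and Dcn. The authors also deposited lists of bases with a false discovery rate (FDR) under 0.05. No base in these windows was listed in either library at Igf2, Ndn, Phlda2, Dlk1, Rtl1, Calcr and Zdbf2, and only replicate 2 listed 8 bases at H19 and 20 at Dcn. The organic cation transporter gene Slc22a18 had a peak in replicate 1 only, with a signal of 0.683. A peak in 1 library only was seen at 4.8% of protein-coding genes. Nap1l5, a gene of the nucleosome assembly protein family, had peaks of 0.333 and 0.327 that did not overlap between the libraries. Depth is unknown, so a region open in few cells could lie under the limit of detection.

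Replicate 1 had the higher promoter signal at 24 of the 30 genes and replicate 2 at 6. The median ratio of replicate 1 to replicate 2 was 1.09 over these genes and 1.12 over all 60596 regions shared by the libraries. The ratio ran from 0.774 at Ppp1r9a, which encodes a neuronal actin-binding protein, to 1.81 at Igf2r. By the allele known to be expressed, 14 of 20 paternally expressed genes were open and 13 of 18 maternally expressed ones. Median promoter signals were 0.828 over the 15 paternal genes and 2.91 over the 13 maternal genes with peaks in both libraries. The paternal median is the value of the region shared by Peg10 and Sgce, which counts for both genes. The maternal median is the value of Ppp1r9a at an inner start, and its gene-level start had 0.513. The difference between the medians was not tested. The highest mean of a paternal gene was 5.17, at Zrsr1, whereas Commd1, Ube3a and Trappc9, labelled maternal, exceeded 10. The labels hold for tissues where a gene is imprinted, and Ube3a is active from both copies outside neurons. Which copies were active in this spleen was not measured, so the medians do not describe a difference between parental copies. The 2 genes with transcripts of both kinds, Gnas and Inpp5f, were both open.

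The H19-Igf2 cluster on chromosome 7 was closed at its promoters and open at its control region. H19 (chr7:142575529-142578143, minus strand) makes a non-coding RNA from the maternal copy, and Igf2 (chr7:142650766-142666816, minus strand) makes a fetal growth factor from the paternal copy. Neither had a promoter peak, including at each of 7 groups of start sites of Igf2. Between 2 and 4 kb upstream of H19, in intergenic sequence, lay the middle of the 3 regions printed above, open in both libraries with signals of 0.554 and 0.629 (mean 0.592 ± 0.0535, SD, n = 2). It was absent from the stricter shared regions. The proximal and the distal region were called in replicate 2 only, with 0.507 and 0.544. Igf2 had 2 regions open in both libraries within 20 kb, of which the stronger lay at -9.05 kb from the start (chr7:142675799-142675934, intergenic) with 0.849 and 0.711.

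The CTCF-form matches fell where the openings lay. The window from 2 to 4 kb upstream of H19 held 4 matches to this form, at -2173, -2628, -3654 and -3898 bases from the start, all on the strand of H19 transcription. The match at -2628 bases touched a footprint in both libraries. Those at -2173 and -3654 bases touched one in replicate 2, the library that had the peaks, and the match at -3898 bases lay in no peak or footprint. This form was found in 113 of the 60596 shared regions (0.186%), and 76.1% of its matches in them touched a footprint of both libraries. A looser form of the CTCF core was found in 4.03%, and among the 15 control windows H19's alone held a match to either form. CTCF cores with letters outside these forms were not counted, and whether other control windows hold such cores was not tested. A match describes letters, and binding of CTCF was not measured.

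**Figure D2:**
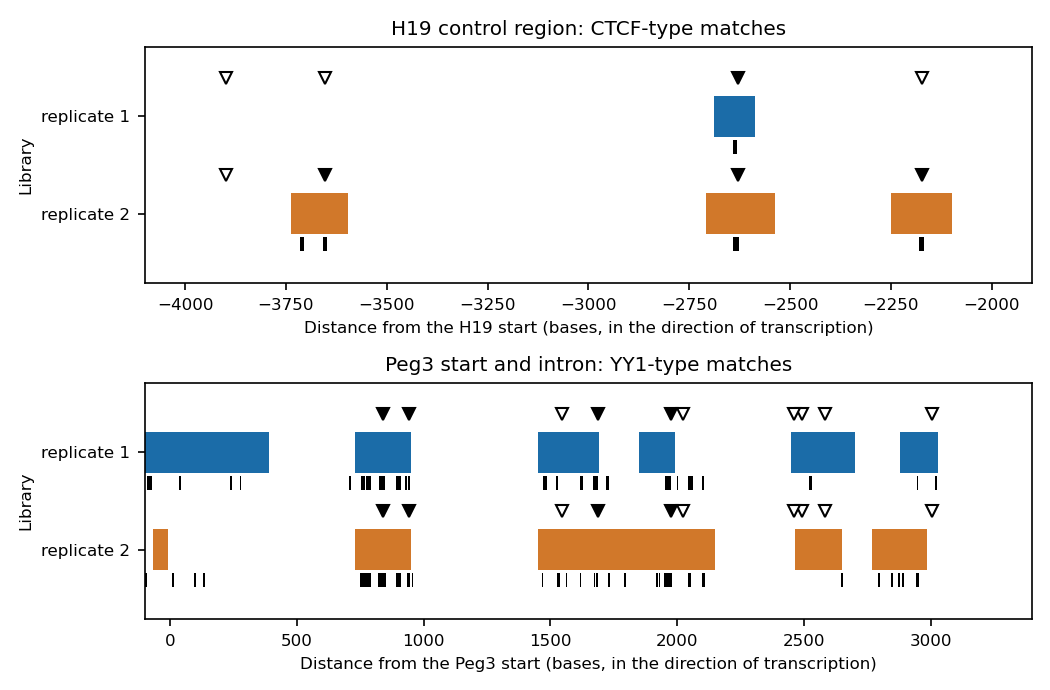
Peaks (coloured bars, 1 row per library), footprints (black ticks below them) and motif matches (triangles, filled where they touch a footprint of that library) by distance in bases from the start of H19 (upper panel, CTCF form) and Peg3 (lower panel, YY1 motif). Of the 4 matches upstream of H19, 1 touches a footprint in both libraries, 2 in replicate 2 only and 1 in neither. Of the 10 matches in the Peg3 intron, 4 touch a footprint in both.

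At the Igf2r cluster on chromosome 17 the host gene was more open than the RNA that runs through it. Igf2r (chr17:12682406-12769664, minus strand) encodes a receptor that clears insulin-like growth factor 2, and Airn (chr17:12741311-12860136, plus strand) is the paternal antisense RNA that starts in an Igf2r intron and silences it in cis. The Igf2r start had 4.96 in replicate 1 and 2.73 in replicate 2 (3.85 ± 1.58, SD, n = 2), the widest relative gap between the libraries among the imprinted genes. The Airn start had 0.871 and 0.764 (0.818 ± 0.0754) in a broad region of 670 bases with 2 shared footprints. Igf2r was thus 5.70 times as high as Airn in replicate 1 and 3.58 times in replicate 2. Within the body of Airn, 69.4 kb from the gene-level start, an intronic region reached 1.20 and 1.37.

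The Kcnq1 cluster on chromosome 7 showed the opposite order. Kcnq1 (chr7:143106362-143427042, plus strand) encodes a potassium channel subunit, and Kcnq1ot1 is the paternal antisense RNA that starts in its intron. The Kcnq1 start had only 0.608 and 0.531, whereas the Kcnq1ot1 start had 3.24 and 4.45 (3.85 ± 0.855, SD, n = 2), with 4 shared footprints in the region printed above. A second region in Kcnq1ot1, 631 bases wide and just downstream, had 0.903 and 0.625. Elsewhere in Kcnq1 introns a region at 47.7 kb had 2.09 and 2.03. Of the genes that this RNA silences on the paternal copy, Cdkn1c (chr7:143458339-143461050), a cell cycle inhibitor, had a promoter at 5.91 and 4.85, near the median of protein-coding genes. It also had an intergenic region at -5.45 kb with 2.29 and 1.90, and a match to the looser CTCF form there touched a footprint in both libraries. Ascl2, a transcription factor gene of the placenta, had 0.957 and 0.634. Phlda2, which restrains growth of the placenta, had no promoter peak, but an intergenic region at -2.89 kb (chr7:143505961-143506120) reached 2.81 and 3.40. Slc22a18, between Cdkn1c and Phlda2, counted 8 shared regions in its body and 20 kb on either side, of which the strongest was the Cdkn1c promoter.

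At the Dlk1-Meg3 cluster on chromosome 12, a start of the maternal non-coding RNA Meg3 had an open region within 1 kb and the starts of the paternal genes had none. The call at Meg3 was lost within 500 bp and with the gene-level start only, and its most upstream group of starts had no peak. A Meg3 exon had a region with 0.941 and 1.05 (0.996 ± 0.0775, SD, n = 2), lying 773 bases from the nearest start (chr12:109542941-109543140). Dlk1 (chr12:109452823-109463336), which encodes a membrane protein of the Notch ligand family known in fetal liver and stroma, had no promoter peak. Its strongest region lay at -14.9 kb in intergenic sequence, with 4.21 and 4.19 and 3 shared footprints, and is printed above. Rtl1, a retrotransposon-derived gene of the placenta, had no shared region in its body or within 20 kb. The window from 10 to 16 kb upstream of Meg3, which holds the intergenic control region, had a single peak of 0.478 in replicate 1 and none in replicate 2.

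The Peg3 cluster was open at a shared promoter and inside the gene. Peg3 (chr7:6703892-6730431, minus strand) and Usp29 (chr7:6730578-6967219, plus strand) are paternally expressed genes, for a zinc finger protein and a ubiquitin protease, that start close together in opposite directions. The region over both starts had 0.758 and 0.605. The upstream intron region printed above, 0.84 kb inside Peg3, was stronger, with 3.13 and 2.91 (3.02 ± 0.158, SD, n = 2) and 4 shared footprints. The next region, 1.80 kb inside, was 700 bases wide with 0.930 and 0.875 and 8 shared footprints. The maternally expressed Zim1 had 0.414 and 0.392 and was not in the stricter lists.

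GCCATNTT recurred in these openings in 1 orientation. Regions open in both libraries held 10 matches between 838 and 3004 bases from the Peg3 start, spread over 4 regions and all reading in the direction of Peg3 transcription. Of these, 4 touched a footprint in both libraries, 2 in the upstream region and 2 in the downstream one, where 1 lies outside the bases printed. Matches were found in 4.69% of all shared regions, but 2 or more in only 134 regions and 4 or more in only 4 of 60596. The downstream Peg3 region was 1 of those 4. It was 700 bases wide, against a median of 200 over all shared regions, and the part of width in these counts was not tested. Over all shared regions 37.9% of matches touched a footprint of both libraries.

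Signals were low across the Snrpn-Ube3a cluster of chromosome 7 except at Ube3a. Snrpn encodes a splicing protein, and its start lies in the control region of the cluster. It had 0.608 and 0.605 (0.606 ± 0.00183, SD, n = 2), and its window held 3 shared regions without a shared footprint. The paternal genes Mkrn3, a ubiquitin ligase of puberty timing, and Magel2, a gene of protein sorting, had 0.882 and 0.940, and 0.253 and 0.245. Ndn, a growth suppressor gene of neurons, had no promoter peak, and a shared region 1.83 kb downstream of its start, in an exon, had 0.263 and 0.519. Ube3a (chr7:59228750-59311536), which is imprinted in neurons and active from both copies elsewhere, stood apart with its 15.3 and 11.4. The median signal of the 13 shared regions around these 5 genes was 0.340, beside 1.00 for the shared regions around all 40 genes. The weakest peak called differed between clusters. Here it had 0.194 in replicate 1 and 0.184 in replicate 2, at Kcnq1 0.237 and 0.159, and at Igf2-H19 0.554 and 0.507. Its part in the median was not tested.

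On chromosome 6 the Peg10 promoter was weak and a region inside the gene was strong. Peg10 (chr6:4747306-4760517), a retrotransposon-derived gene needed in the placenta, shares a promoter with the sarcoglycan gene Sgce, and this promoter had 0.737 and 0.920. The intron region printed above, 2.05 kb downstream of the Peg10 start, had 5.98 and 5.75 (5.86 ± 0.161, SD, n = 2) with 6 shared footprints. Of the maternal genes nearby, Asb4, an adaptor of protein degradation, had 2.50 and 1.95, and the calcitonin receptor gene Calcr had no peak in its body or within 20 kb. Ppp1r9a had 0.527 and 0.499 at its main group of starts and 2.54 and 3.28 at an inner start 208 kb downstream. Mest, a paternally expressed hydrolase gene on the same chromosome, had 0.618 and 0.797.

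Genes with several promoters differed between their starts. Gnas (chr2:174284320-174346744) encodes the stimulatory G protein subunit, and its upstream starts make imprinted variants. The Nesp start, maternally used, had no peak in either library. The Gnasxl start had 0.984 and 0.813, the exon 1A start 2.78 and 2.58, and the main start 2.84 and 2.11. The 2 values of the main start come from different regions. The antisense Nespas start, printed above, was the strongest region around the gene, with 4.70 and 3.72 (4.21 ± 0.695, SD, n = 2). Grb10 encodes an adaptor that dampens insulin signalling. Its upstream start at 12037401 had 0.656 and 0.499, and its inner start at 12026732, of the kind used in neurons from the paternal copy, had 1.19 and 0.969. Inpp5f had its 22.1 and 20.8 at the main start and 2.84 and 2.20 at the inner start, which makes the imprinted variant.

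Several imprinted genes are retrogenes or RNAs lodged in an intron of a host gene, and most hosts had the stronger start. Commd1 had 16.1 and 13.1 beside 5.94 and 4.40 at Zrsr1, a splicing factor retrogene. H13, a signal peptide peptidase gene, had 5.90 and 5.45 beside 4.16 and 3.69 at its retrogene Mcts2, where the gap of the means (5.68 and 3.93) was larger than either SD (0.319 and 0.333). Trappc9 had 14.6 and 11.7 beside 4.11 and 3.48 at the non-coding RNA Peg13. Herc3 had 3.08 and 2.26 beside 0.333 and 0.327 at Nap1l5, from weak peaks that did not overlap between the libraries. With Igf2r and Inpp5f, the host start was higher in both libraries in 6 of 7 pairs with values, with the smallest ratios at H13 (1.42 and 1.48) and the largest at Herc3 (9.24 and 6.93) and Inpp5f (7.78 and 9.42). At Kcnq1 the host start had 0.187 and 0.119 times the signal of Kcnq1ot1. Nnat, a neuronal membrane protein gene within Blcap, had 0.629 and 0.511 near 1 of its starts and no peak within 1 kb of its most CpG-rich start. Blcap had 3.39 and 2.83 at its strongest start, but its gene-level start had a peak in replicate 2 only. This pair was not counted.

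**Figure D3:**
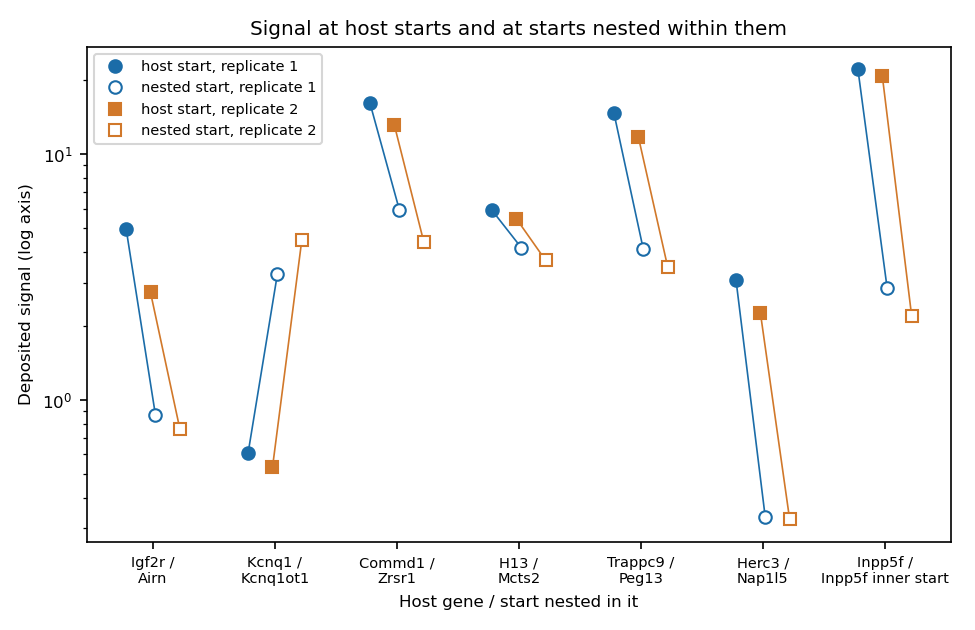
Deposited signal (vertical log axis) at the start of a host gene (filled) and at the start nested within it (open), in replicate 1 (circles) and replicate 2 (squares), for 7 pairs. The nested start is lower in both libraries in 6 pairs and higher at Kcnq1, where Kcnq1ot1 has 3.24 and 4.45.

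The remaining genes stand alone. Impact, a translation regulator gene on chromosome 18, had 4.79 and 3.56 and 3 regions across its CpG-rich start, with 10 shared footprints in the window. An intergenic region at -8.44 kb from the Impact start had 4.602 and 3.43. Plagl1, a zinc finger gene of growth arrest, had 0.419 and 0.405 in a region of 579 bases. Zdbf2 and Dcn, the latter the gene of the matrix proteoglycan decorin, had no peak in their bodies or within 20 kb.

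Set side by side, 12 of 15 control windows held a region open in both libraries, and 9 in the stricter lists. Of the 13 windows that cover a start, 11 were open (84.6%), beside 90.7% of all CpG-rich starts and 40.6% of all starts. The strongest were Zrsr1 (5.17 ± 1.08, SD, n = 2), Impact (4.18 ± 0.867), Mcts2 (3.93 ± 0.333), Kcnq1ot1 (3.85 ± 0.855), Peg13 (3.79 ± 0.445) and Peg3 (3.02 ± 0.158). Below 1 lay Peg10, Airn, Mest, Snrpn, H19 and Plagl1, from 0.828 down to 0.412, and Nap1l5 with 0.330. All 13 windows with values lay below the protein-coding median of 5.76. Peg3 and Peg10 changed places with the width of the window. With 500 bp less on each side Peg3 had 0.681, and with 1500 bp more Peg10 had 5.86, above that median. The windows of Dlk1-Meg3, Nnat and Nap1l5 were not open in both.

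**Figure D4:**
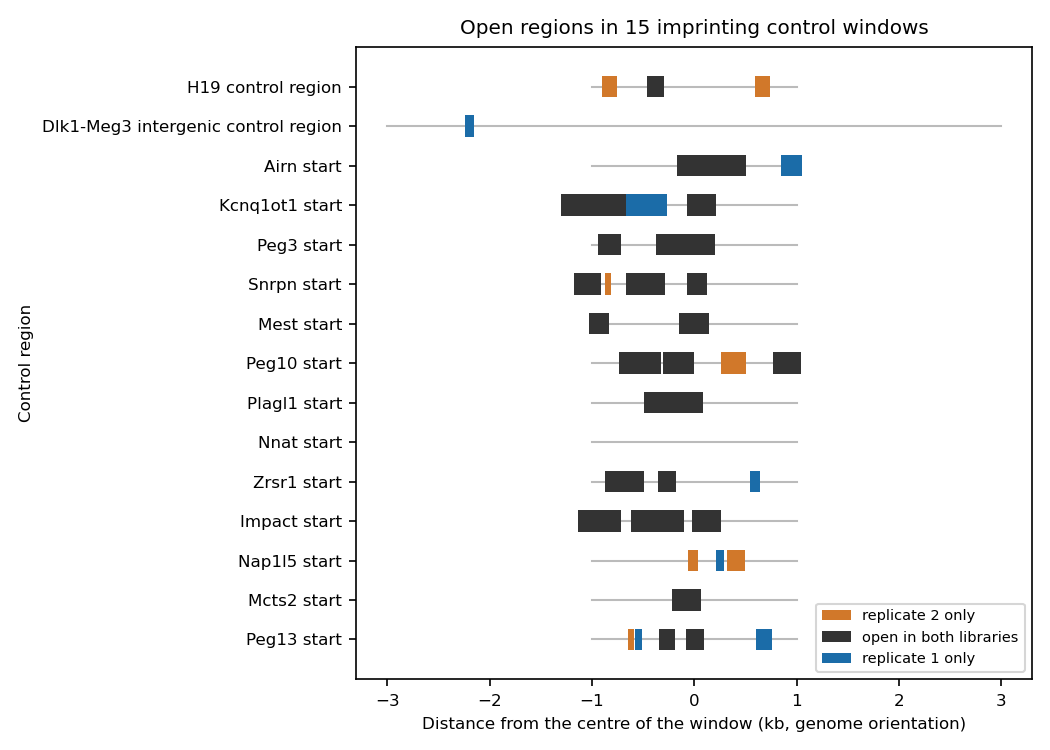
Open regions in the 15 control windows by distance in kb from the centre of the window, in the orientation of the genome (grey lines give the extent of each window). Black bars are open in both libraries, blue bars in replicate 1 only and orange bars in replicate 2 only, and the Nnat window is empty.

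TGCCGC was frequent in the control windows. It was present in 13 of 13 windows at starts, beside 65% of windows at CpG-rich starts and 34.5% at all starts. Where a gene had several starts, its window was set at the one with the highest CpG ratio. TGCCGC itself holds a CpG, and the effect of this choice on the count was not tested. Within the windows, 14 of 23 shared regions (60.9%) held it, beside 11.6% of all shared regions, at 4.33 and 0.599 matches per kb. The control regions were wider, with a median of 280 bases against 200, and their part and that of base composition in the share was not tested. Of all TGCCGC matches in shared regions, 25.4% touched a footprint of both libraries. Within the shared regions of the control windows 5 of 34 matches (14.7%) did so, 2 at Peg13 and 1 each at Peg3, Peg10 and Mcts2. At Snrpn, Mest, Plagl1, Airn, Kcnq1ot1 and Impact none of the matches did.

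Around the genes, counting the gene body and 20 kb on either side, 237 different regions were found, of which 150 (63.3%) were open in both libraries, beside 57.7% of all regions. The others were called in replicate 1 only (34) or replicate 2 only (53). A footprint of both libraries lay in 80% of the 150, beside 77.8%, and 68.7% were in the stricter lists, beside 69%. Their median signal of 1.00 was close to the 1.04 of all shared regions, and 79 lay over 1 kb from any start. At least 1 shared region was found at 35 genes (87.5%), beside 79.9% of protein-coding genes, and the 5 without were Rtl1, Calcr, Nap1l5, Zdbf2 and Dcn. The median gene had 4, as had protein-coding genes, or 4.17 and 4.57 per 100 kb. The highest counts were 18 at the long gene Trappc9 and 11 at Gnas and at Commd1. Weighed by length, Zrsr1 led with 17.98 per 100 kb, but only 3 of its 8 shared regions lay in the gene body. The others included the Commd1 promoter and regions in an exon of Cct4. The strongest region of all lay at -6.44 kb from the Trappc9 start (chr15:73067481-73067800, intergenic) with 26.8 and 21.7.

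**Figure D5:**
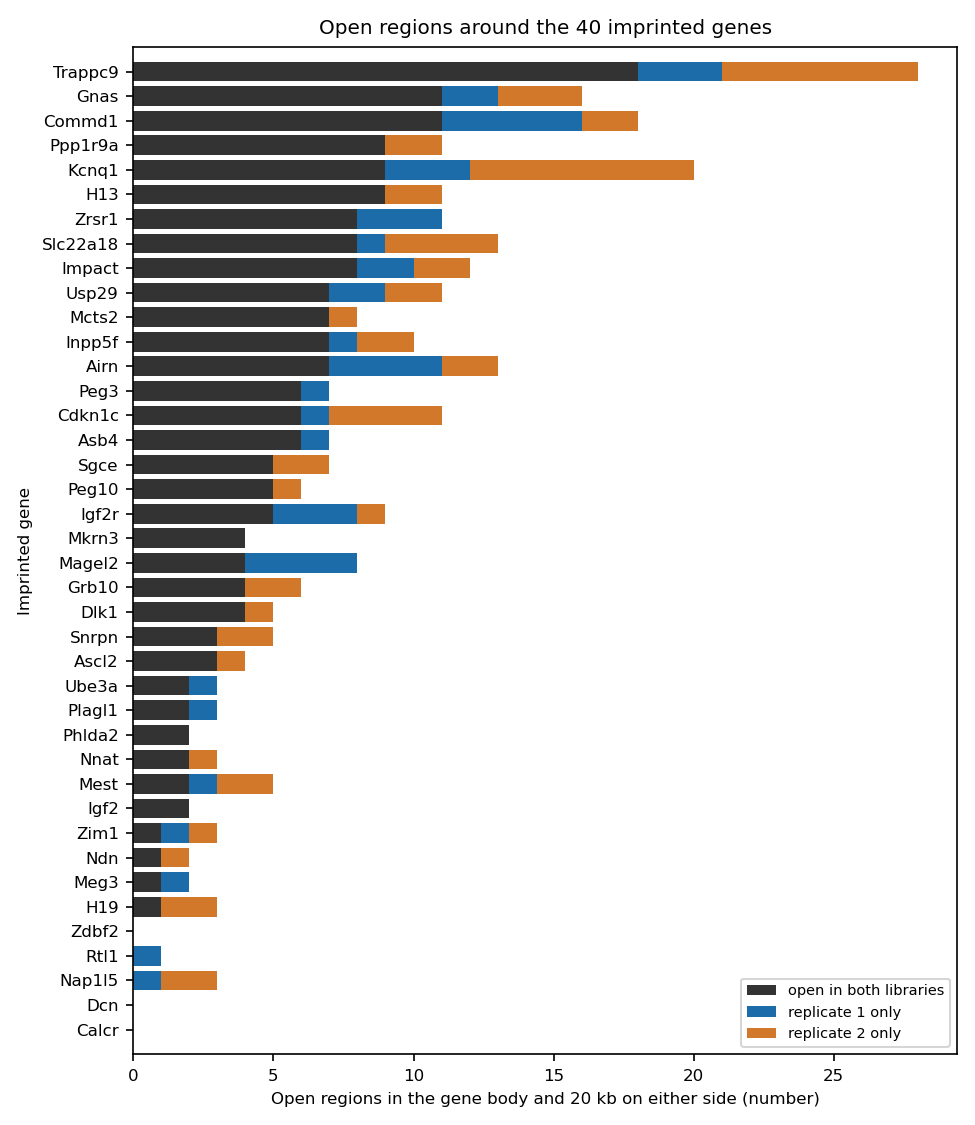
Number of open regions (horizontal axis) in the body of each imprinted gene and 20 kb on either side, split into regions open in both libraries (black), replicate 1 only (blue) and replicate 2 only (orange). Trappc9 has 18 regions open in both libraries, and Calcr, Zdbf2 and Dcn have no region at all.

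Among 52 neighbours of imprinted genes in these clusters, 31 had an open promoter and 17 had no peak. By the same rule 61.4% of all protein-coding genes and 31.8% of all genes were open. The strongest were Dhcr7, an enzyme of cholesterol synthesis (18.9), Herc2 (17.9), Chrac1 (14.97), Nap1l4 (13.6) and the survival gene Bcl2l1 (13.2), given as means of both libraries. Neighbours without a promoter peak included Cobl, Cpa4, Gabrg3, Gpr1 and Ins2. Of 24 genes for regulators of imprinting 22 were open, beside 61.4% of all protein-coding genes. The strongest were Yy1 (19.96), Daxx (19.8), Uhrf1 (15.5), Ezh2 (13.7) and Eed (13.6). Of the other factors whose motifs were searched, Ctcf had 12.5 and 8.30. Zfp57 had only 0.392 and 0.241 and was not in the stricter lists. Dnmt3l and Dppa3, which act in germ cells and the early embryo, had no promoter peak.

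The spleen label was checked with promoters of cell type markers. All 7 erythroid and all 5 B cell markers were open, as were 2 of 3 leukocyte and 2 of 3 T cell markers, while 0 of 3 macrophage and 0 of 4 hepatocyte markers were. Of 9 markers of stroma and mesenchyme, cell types in which several imprinted genes are known to be high, 4 were open, with a median signal of 0.615 among those with peaks in both libraries. Of 4 endothelial markers 3 were open. Markers of other tissues were open too, at 3 of 4 for pancreas, 3 of 4 for neurons and 1 of 3 for skeletal muscle. By the same rule 61.4% of all protein-coding genes were open, so these small counts do not by themselves establish the tissue. The part of any cell type in the signals of the imprinted genes was not tested.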

How the data were processed

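DNase-seq of 2 spleen libraries was analysed from deposited lists on mm10. The authors deposited 2 peak lists per library with a signal per peak, called on each library alone, whose scale is not stated. Deposited footprints carry an FDR (q-value) of 0.01 in every line, and position lists hold the authors' FDR (q-value) where it is under 0.05. The aligner, the callers and how CAST/EiJ reads were placed on the C57BL/6J reference were not given in the sources used here. Depth is unknown. Peaks numbered 80323 in replicate 1 and 88723 in replicate 2, footprints 217159 and 252901.

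Peaks of the longer lists overlapping by at least 1 bp were merged, and regions with peaks of both libraries were called shared. Start sites were all transcript starts of GENCODE vM21. Control windows reached 1 kb to either side of the start with the highest CpG ratio, 2 to 4 kb upstream of H19 and 10 to 16 kb upstream of Meg3, set from general knowledge. Interval code was tested on simulated data. Python 3.11.15, numpy 2.4.6, pandas 2.3.3, pysam 0.24.0 and samtools 1.23.1 were used.

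The genes, lists and windows were chosen with earlier results of these data known. All 40 genes are accounted for. Other genes named are the control-region transcripts, the 5 neighbours and 5 regulators with the strongest promoters, and up to 5 of each list without a peak, in alphabetical order. Ctcf and Zfp57 are named because their motifs were searched. Other regions named were drawn from the strongest shared one of each gene and the strongest over 1 kb from any start, and not all were named. Among those left out, regions around H13 (6.59 and 7.67) and Impact (18.1 and 11.4) were stronger than the promoters given. Some further regions, such as those in the Peg3 intron, were described after their values were seen. Alternatives were the stricter lists, other windows and flanks, gene-level starts, reciprocal overlap by a fraction of 0.5, rescaling of replicate 2 and each library alone.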

Additional observations from a re-analysis of the deposited data

How the results depend on the processing

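The count of 29 imprinted genes with an open promoter stayed within 22 and 31 over the alternatives, that of 26 genes with a shared footprint within 23 and 31, and that of 12 open control windows within 9 and 14. The median promoter signal of 1.65, over 30 genes, moved more. It was 0.870 within 500 bp (28 genes), 2.91 within 2500 bp (31 genes) and 3.02 in the stricter lists (23 genes). With gene-level starts only it was 2.23 (23 genes), and with replicate 2 rescaled 1.74. In the stricter lists all 23 genes with values kept the same signal and the other genes had none. What moved the median in the other settings was not tested. With 1 library left out in turn the median ran from 1.19 to 1.502. The median of 4 shared regions per gene was 2 without the 20 kb flanks, 2 in the stricter lists, 6 with 50 kb flanks and between 4.5 and 6 with 1 library alone. No paired analysis was possible because the labels give 1 group only. Depth is unknown, so weak peaks seen in 1 library only, such as those upstream of H19, cannot be told from ones under the limit of detection of the other.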
